A study of Mus musculus with 61 samples.

Results

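NRF2, the transcription factor encoded by Nfe2l2, and 9 genes of its antioxidant program and of glutathione metabolism were followed in mouse liver across 8 inbred strains. The 10 genes were taken by symbol from a table of 18754 genes. They are Nfe2l2, Nqo1, Gclc, Gclm, Txnrd1, Srxn1, Hmox1, Ephx1, Gsr and Gss, and all 10 were found, each once, and passed the filter on low counts. The strains are the founders of the Diversity Outbred mice, a population made by crossing 8 inbred lines, and the strains are named here as the labels name them, the first with the word strain before its number. They are strain-129, AJ, B6, Cast, NOD, NZO, PWK and WSB. Every mouse ate a diet rich in fat and sugar, recorded as 45% fat, and no group on another diet was analysed here, so every value describes that diet. Poly(A) RNA of frozen liver was sequenced in 60 libraries, with 8 of strain-129, 6 of AJ, 7 of B6, 7 of Cast, 8 of NOD, 8 of NZO, 8 of PWK and 8 of WSB. The labels give no sex or age and do not state that each library is a separate animal, so p-values measure the spread between libraries, which may be partly technical.

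In unstressed cells NRF2 protein is bound by KEAP1 and degraded, and electrophiles or oxidants release it. The freed factor pairs with small MAF proteins and binds antioxidant response elements in front of genes for glutathione synthesis, thioredoxin recycling, quinone reduction and NADPH supply. Much of this control acts on the protein, so Nfe2l2 RNA need not follow NRF2 activity. In liver, which has a high demand for glutathione, the same enzymes handle drugs, heme and lipid peroxides.

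Promoter sequences are shown for the genes whose window held the core of an antioxidant response element, because this element is where NRF2 is known to act. The windows cover 250 bases before to 50 bases after a start site and come from RefSeq on GRCm38.p6. The table held 7 of the 10 genes, with 9 windows, of which 3 belong to Txnrd1. It had no entry for Gclc, Hmox1 and Gsr. The core TGACNNNGC, searched on both strands, was in 4 of the 9 windows and in 12.4% of all 32851 windows of that length in the table. The variant TGAGNNNGC, added after the first search, was in 1 of the 9 and in 17.6% of all windows. Sequences run 5′ to 3′ on the strand of the gene, and capitals mark each match, written as its reverse complement where it lies on the other strand.
Nfe2l2, chr2:75704614-75704913, minus strand: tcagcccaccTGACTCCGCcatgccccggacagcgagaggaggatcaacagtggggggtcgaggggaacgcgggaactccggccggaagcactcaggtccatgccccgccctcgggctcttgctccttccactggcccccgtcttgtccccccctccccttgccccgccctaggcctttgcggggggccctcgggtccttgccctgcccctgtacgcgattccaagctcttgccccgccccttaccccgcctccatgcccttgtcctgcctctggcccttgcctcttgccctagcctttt
Gclm, chr3:122245307-122245606, plus strand: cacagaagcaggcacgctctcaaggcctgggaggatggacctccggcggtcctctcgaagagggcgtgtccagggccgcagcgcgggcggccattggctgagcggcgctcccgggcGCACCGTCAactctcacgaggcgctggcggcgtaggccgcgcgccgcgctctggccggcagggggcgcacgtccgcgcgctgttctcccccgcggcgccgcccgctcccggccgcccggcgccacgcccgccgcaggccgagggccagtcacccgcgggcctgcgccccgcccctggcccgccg
Txnrd1, chr10:82858956-82859255, plus strand: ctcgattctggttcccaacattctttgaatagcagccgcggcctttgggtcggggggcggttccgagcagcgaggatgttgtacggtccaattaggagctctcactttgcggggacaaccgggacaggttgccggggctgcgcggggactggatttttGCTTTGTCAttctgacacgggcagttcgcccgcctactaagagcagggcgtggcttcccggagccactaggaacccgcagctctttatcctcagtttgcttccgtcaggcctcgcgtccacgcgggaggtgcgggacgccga
Srxn1, chr2:152105274-152105573, plus strand: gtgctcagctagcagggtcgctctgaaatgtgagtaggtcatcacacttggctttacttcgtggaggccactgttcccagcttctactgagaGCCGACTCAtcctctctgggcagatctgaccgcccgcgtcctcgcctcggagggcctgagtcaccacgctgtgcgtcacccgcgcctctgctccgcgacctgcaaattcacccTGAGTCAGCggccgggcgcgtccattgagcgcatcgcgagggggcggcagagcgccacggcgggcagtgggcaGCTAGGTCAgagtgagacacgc
In Nfe2l2 the match TGACTCCGC began 240 bases before the start site, on the strand of the gene. In Gclm the match began 134 bases before the start, and in Txnrd1 92 bases before it, both on the other strand. Srxn1, for sulfiredoxin, held 1 match to TGACNNNGC beginning 29 bases after its start, and 2 matches to TGAGNNNGC, beginning 158 and 45 bases before it. The windows of Nqo1, Ephx1 and Gss and the remaining 2 of Txnrd1 held neither motif. Sequence farther from the start sites was not searched, so these windows do not show that a gene lacks the element. A match is a string of letters and was not tested for binding.

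Libraries held 19.98 to 69.17 M reads, with a median of 30.42 M. Levels are counts-per-million (CPM) after TMM scaling, which adjusts library sizes for composition. Hepatocyte markers summed to 36710 to 157918 CPM, and none of the 10 was at 0 in any strain. The library NZO 8 stood apart. Its neutrophil markers summed to 1370 CPM, against an NZO median of 8.11, and its hepatocyte sum was the lowest of all. It was also the lowest NZO library for 7 of the 10 genes, and results on NZO are therefore given with and without it where it matters. Xist, which coats the silenced X chromosome of female cells, spanned low to high levels in every strain (0.193 to 1420 CPM within NZO), and these libraries were pooled. In bulk liver, fewer cells of a type and less RNA per cell cannot be told apart.

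All 10 genes differed among the 8 strains (edgeR quasi-likelihood test over all genes, Benjamini-Hochberg adjusted p under 0.05, the threshold for a call throughout). Of all 16165 genes tested, 89.8% did so too, so a call in this test sets no gene apart. The 10 genes differed in the share of their variance that lay between strains. Gclm had 88.2% of its variance in log2 CPM between strains (F = 51.2, adjusted p = 2.12e-20), Ephx1 had 72.3% and Txnrd1 62.5%. At the other end were Gsr with 40.3% and Nqo1 with 36.3% (F = 3.34, adjusted p = 0.00606). The median over all genes was 49.3%. Per kilobase of exon, Ephx1 stood at 127 CPM and Gclc at 74.7 CPM, far above Gclm at 23.2, Gsr at 22.01, Txnrd1 at 17.6 and Nfe2l2 at 16.8 CPM. Nqo1 was the least abundant of the 10, at 3.95 CPM per kilobase.

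**Figure D1:**
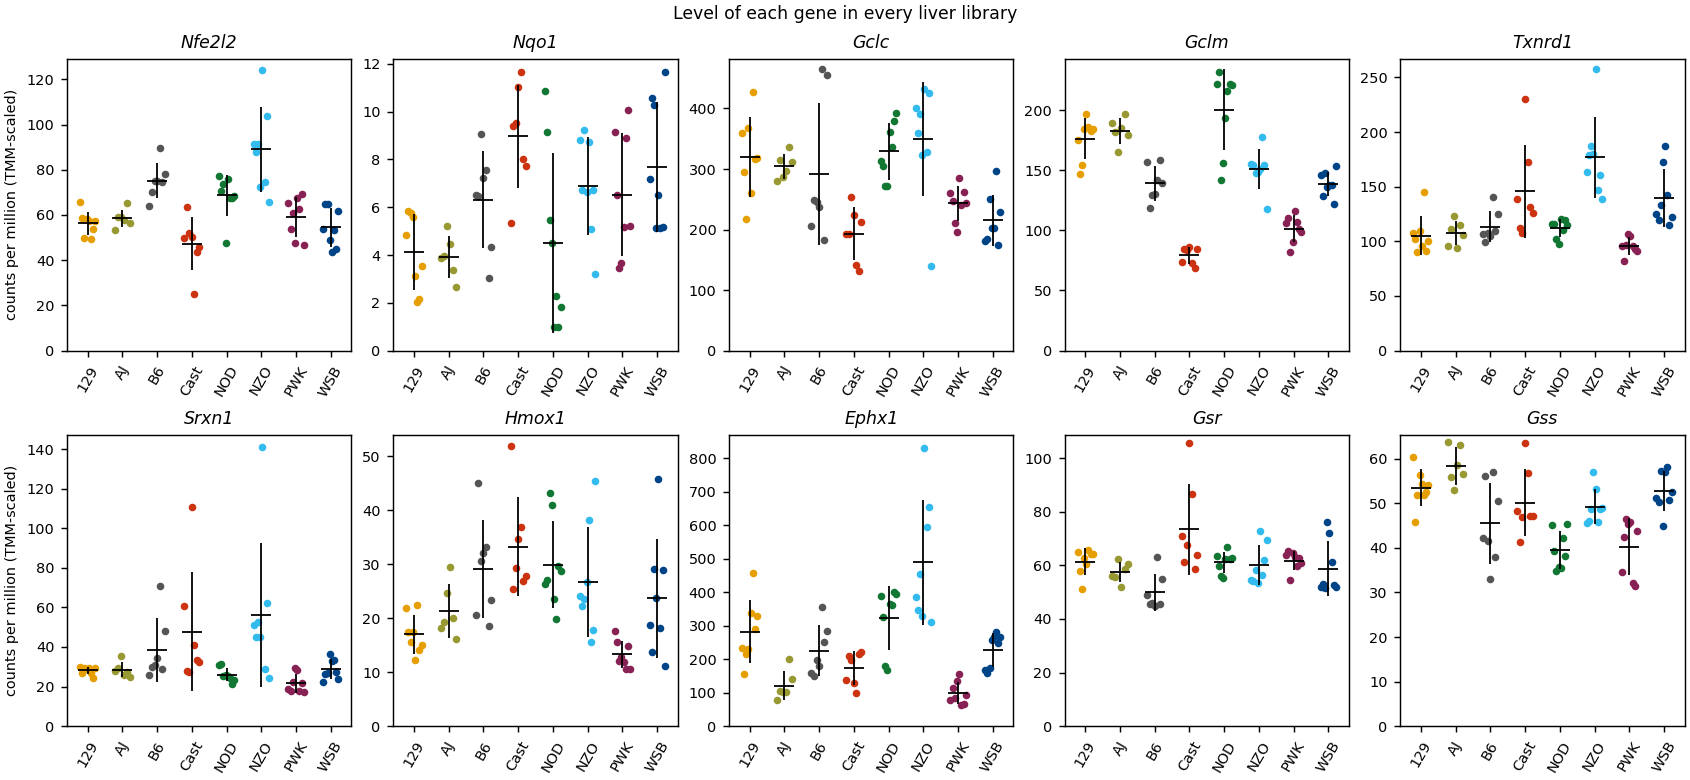
Level of each of the 10 genes (vertical axis, TMM-scaled CPM, from 0) in every library of the 8 strains (horizontal axis). Points are libraries, the dash is the strain mean and the bar its SD. Gclm has its lowest mean in Cast, at 79.1 CPM, and its highest in NOD, at 200.5 CPM, and the ranges of several strains overlap. Srxn1 shows single high libraries in NZO, Cast and B6.

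Nfe2l2 (ENSMUSG00000015839, GRCm38 chr2:75675513-75704641, minus strand) encodes NRF2 itself. Its level was highest in NZO, at 89.01 ± 18.8 CPM (SD, n = 8), and lowest in Cast, at 47.3 ± 11.6 CPM (SD, n = 7). Between them, in falling order, lay 75.2 ± 7.77 in B6, 68.6 ± 9.27 in NOD, 59.2 ± 8.84 in PWK, 58.5 ± 3.91 in AJ, 56.3 ± 5.22 in strain-129 and 54.6 ± 8.51 in WSB. The lowest, median and highest libraries were 65.8, 89.8 and 124 CPM in NZO and 25.2, 49.97 and 63.8 CPM in Cast. The ranges of these strains did not overlap, and NZO exceeded Cast by 0.91 (SE 0.122) on the log2 scale, or 1.88-fold (edgeR adjusted p = 6.67e-09). No 2 neighbours in the order differed beyond their spread, although 15 of the 28 pairs of strains did. Over all genes and the 28 pairs together, 37.5% of results were called. Against the mean of the other 7 strains, Nfe2l2 was higher in NZO by 0.58 (adjusted p = 6.65e-08) and in B6 by 0.31 (0.00649), and lower in Cast by 0.46 (6.25e-05). The lower level in WSB, which fell by 0.22 (0.039), lost its call in 12 of the 60 fits that left out 1 library, with adjusted p up to 0.131 without WSB 6.

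Glutathione is made in 2 steps. Glutamate-cysteine ligase, a dimer of a catalytic subunit encoded by Gclc and a modifier subunit encoded by Gclm, joins cysteine to glutamate and limits the rate. Gss, glutathione synthetase, then adds glycine. Both ligase subunits were lowest in Cast, but their order over the other strains was not the same.

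Gclm (ENSMUSG00000028124, chr3:122245557-122270732, plus strand) had the sharpest strain pattern of the 10 genes. Libraries of Cast held a lowest, median and highest of 68.8, 83.7 and 85.9 CPM, and PWK held 81.9, 103 and 116 CPM. NOD, at the top, held 142, 219 and 232 CPM. Every library of Cast lay below every library of NOD, AJ, strain-129, NZO, B6 and WSB, and its range overlapped that of PWK. The strain means were 200.5 ± 33.8 in NOD, 183 ± 10.8 in AJ, 176 ± 16.99 in strain-129, 151 ± 16.5 in NZO, 139 ± 14.8 in B6, 139 ± 10.2 in WSB, 101 ± 11.1 in PWK and 79.1 ± 7.12 in Cast CPM. NOD exceeded Cast by 1.34 (SE 0.0876) on the log2 scale, or 2.53-fold (edgeR adjusted p = 2.46e-19). In this order WSB stood above PWK by 0.45 (adjusted p = 9.21e-06) and PWK above Cast by 0.36 (0.000423), and 22 of 28 pairs of strains differed. The step from strain-129 to NZO, 0.22 (0.0294), was not called without NZO 8 (0.0648). Against the mean of the other strains Gclm was higher in NOD by 0.59, in AJ by 0.44 and in strain-129 by 0.38, and lower in Cast by 0.95 and in PWK by 0.54. The largest of these 5 adjusted p-values was 2.11e-06, and none of the calls was lost in any leave-out.

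Gclc (ENSMUSG00000032350, chr9:77754535-77794485, plus strand) varied more between libraries of a strain. Means in falling order were 350.0 ± 94.4 in NZO, 329 ± 46.4 in NOD, 320.3 ± 65.7 in strain-129, 304 ± 20.7 in AJ, 291 ± 118 in B6, 243 ± 28.5 in PWK, 215 ± 41.7 in WSB and 193 ± 43.6 in Cast CPM. The lowest, median and highest libraries were 139.7, 375 and 432 CPM in NZO and 132, 193 and 254 CPM in Cast, which overlapped through NZO 8, the lowest NZO library. NZO exceeded Cast by 0.86 (SE 0.173) on the log2 scale, or 1.81-fold (edgeR adjusted p = 2.81e-05), and no neighbouring strains differed beyond their spread. Against the other strains Gclc was lower in Cast by 0.59 (adjusted p = 0.000307) and in WSB by 0.41 (0.00846). It was higher in NZO by 0.40 (0.00588), a call that was lost when the 4 NZO libraries with over 10% of reads on Rn18s-rs5, a ribosomal RNA gene, were left out (0.32, adjusted p = 0.147). B6 was split, with libraries 6 and 8 at 465 and 455 CPM and the other 5 between 182 and 249.5 CPM.

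Gss (ENSMUSG00000027610, chr2:155563181-155592810, minus strand) followed neither ligase subunit. Means ran from 58.4 ± 4.24 CPM (SD, n = 6) in AJ to 39.5 ± 4.26 CPM (SD, n = 8) in NOD. Libraries of AJ held a lowest, median and highest of 52.9, 57.5 and 63.8 CPM, and those of NOD held 34.7, 38.7 and 45.3 CPM. The ranges did not overlap, and AJ exceeded NOD by 0.57 (SE 0.0966) on the log2 scale, or 1.48-fold (edgeR adjusted p = 1e-05). Between them lay 53.4 ± 4.16 in strain-129, 52.7 ± 4.49 in WSB, 50.2 ± 7.45 in Cast, 49.2 ± 3.9996 in NZO, 45.5 ± 9.17 in B6 and 40.3 ± 6.44 in PWK, with no difference between neighbours. NOD, which had the highest Gclm, was thus lowest in Gss, which fell by 0.33 there against the other strains (adjusted p = 0.000198). Exons of Gss overlap those of Acss2, Gssos1 and Gssos2, the largest single overlap covering 6.68% of their length, and reads there cannot be assigned without strand. Exons of Gclm overlap those of Gm17494 and Gm6061 (largest single overlap 4.71%), and those of Ephx1 overlap Gm36961 (3.69%).

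Gsr, glutathione reductase, returns oxidised glutathione to its reduced form with NADPH (ENSMUSG00000031584, chr8:33652523-33698163, plus strand). Its ratio of highest to lowest strain mean, 1.47, was the smallest of the 10 genes, just below 1.48 for Gss. Cast was highest, at 73.5 ± 16.9 CPM (SD, n = 7), and B6 lowest, at 49.9 ± 6.85 CPM (SD, n = 7). The 6 strains between them had means of 57.6 to 61.8 CPM. By library, Cast had a lowest, median and highest of 58.8, 67.5 and 106 CPM and B6 of 44.7, 45.9 and 63.2 CPM. These ranges overlapped, and Cast exceeded B6 by 0.56 (SE 0.0962) on the log2 scale, or 1.47-fold (edgeR adjusted p = 2.17e-06). The lead of Cast over the next strain, PWK, was 0.25 (0.0219) and lost its call without Cast 5 (adjusted p = 0.185) or Cast 6. Against the mean of the others Gsr was higher in Cast by 0.33 (7e-05) and lower in B6 by 0.31 (0.000788), and both calls held in all 60 leave-outs.

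Txnrd1 and Srxn1 act in thiol repair. Txnrd1 (ENSMUSG00000020250, chr10:82859206-82897724, plus strand) encodes cytosolic thioredoxin reductase, and Srxn1 (ENSMUSG00000032802, chr2:152105516-152111376, plus strand) encodes sulfiredoxin, which restores overoxidised peroxiredoxins. Strain means of both were highest in NZO, next in Cast and lowest in PWK. The lead of Cast over the next strain was not called, with WSB next for Txnrd1 (edgeR adjusted p = 0.713) and B6 for Srxn1 (0.287). Cast 5 was the highest Cast library for both genes.

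Means of Txnrd1 were 177 ± 36.9 in NZO, 146 ± 42.9 in Cast, 139.7 ± 26.6 in WSB, 113 ± 14.2 in B6, 112 ± 8.27 in NOD, 108 ± 11.4 in AJ, 105 ± 17.5 in strain-129 and 95.7 ± 7.84 in PWK CPM. NZO libraries held a lowest, median and highest of 139, 171 and 258 CPM, and PWK libraries 82.02, 95.5 and 107 CPM. The lowest NZO library stood above the highest of PWK, and the difference was 0.89 (SE 0.117) on the log2 scale, or 1.85-fold (edgeR adjusted p = 6.41e-09). Without NZO 5, the highest library, it was 0.77 (8.67e-08). Between WSB and B6 the step was 0.30 (0.0356), and 4 of 60 leave-outs ended this call. NZO exceeded Cast by 0.28 (adjusted p = 0.0421), but 50 of the 60 leave-outs ended this call. Cast itself was 0.29 above the mean of the others (0.00519), and without Cast 5 this was 0.14 (adjusted p = 0.152). In strain-129, where Txnrd1 fell by 0.24 (0.0385), and in WSB, where it was 0.22 higher (0.0318), the call also ended in some leave-outs (7 and 3 of 60, adjusted p up to 0.102 without library 8 of strain-129 and 0.157 without WSB 6).

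Srxn1 means were 56.3 ± 36.4 in NZO, 47.7 ± 30.1 in Cast, 38.5 ± 15.99 in B6, 28.7 ± 5.05 in WSB, 28.5 ± 3.73 in AJ, 28.1 ± 1.88 in strain-129, 26.005 ± 3.44 in NOD and 21.6 ± 4.79 in PWK CPM. Single libraries set much of the spread. In NZO the lowest, median and highest were 24.2, 48.2 and 141 CPM, in Cast 27.5, 33.6 and 111 CPM and in PWK 17.1, 20.1 and 29.4 CPM. The ranges of NZO and PWK overlapped, and no neighbouring strains differed. NZO exceeded PWK by 1.38 (SE 0.235) on the log2 scale, or 2.61-fold (edgeR adjusted p = 2.02e-06). Against the other strains NZO was higher by 0.89 (9.38e-06), or by 0.53 without NZO 5 (adjusted p = 0.004), and PWK lower by 0.69 (0.00184). The higher level in Cast, 0.62 (0.00221), rested on Cast 5 and was 0.26 without it (adjusted p = 0.198).

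Hmox1, heme oxygenase 1, breaks down heme and is strongly expressed in Kupffer cells, the macrophages of the liver (ENSMUSG00000005413, chr8:75093591-75100596, plus strand). Its means were 33.3 ± 9.22 in Cast, 29.9 ± 8.12 in NOD, 29.1 ± 9.13 in B6, 26.7 ± 10.2 in NZO, 23.7 ± 11.04 in WSB, 21.3 ± 4.94 in AJ, 17.02 ± 3.61 in strain-129 and 13.3 ± 2.55 in PWK CPM. Cast libraries had a lowest, median and highest of 25.5, 29.2 and 51.9 CPM, and PWK libraries of 10.6, 12.4 and 17.7 CPM. These ranges did not overlap, and Cast exceeded PWK by 1.32 (SE 0.22) on the log2 scale, or 2.5-fold (edgeR adjusted p = 1.36e-06). Against the other strains Hmox1 was lower in PWK by 0.93 (1.15e-05) and higher in Cast by 0.58 (0.00157), in all 60 leave-outs. Of 12 Kupffer cell and macrophage markers, 10 were lower and 1 higher in Cast (28.8% and 30.8% of all genes), and 4 were lower and 1 higher in PWK (22.7% and 22.5%). In B6 11 of these markers were higher and 0 lower (19.4% and 14.7%), and in NZO 10 and 0 (26.7% and 19.5%). With all libraries Hmox1 was called in neither B6 nor NZO. In strain-129 4 were lower and 1 higher (10.9% and 13.7%), and in WSB 6 and 0 (22.4% and 22.6%). NOD had 1 lower and 0 higher (11.6% and 16.7%) and AJ 0 and 1 (11% and 13.1%). The part of these cells in the Hmox1 levels was not tested. In strain-129 Hmox1 fell by 0.52 (0.0169), a call that ended without library 6 (adjusted p = 0.0508), and in NOD it was 0.41 higher (0.0397), a call that ended in 7 of 60 leave-outs, with adjusted p up to 0.165 without NOD 3.

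Nqo1, NAD(P)H quinone dehydrogenase 1, is among the most used reporters of NRF2 activity (ENSMUSG00000003849, chr8:107388225-107403206, minus strand). Here it was scarce, with means of 8.96 ± 2.15 in Cast, 7.701 ± 2.72 in WSB, 6.89 ± 2.05 in NZO, 6.52 ± 2.57 in PWK, 6.31 ± 2.03 in B6, 4.503 ± 3.77 in NOD, 4.12 ± 1.59 in strain-129 and 3.92 ± 0.877 in AJ CPM. The lowest, median and highest libraries were 5.33, 9.42 and 11.7 CPM in Cast and 2.67, 3.8998 and 5.23 CPM in AJ. The lowest Cast library was just above the highest of AJ, and Cast exceeded AJ by 1.19 (SE 0.363) on the log2 scale, or 2.28-fold (edgeR adjusted p = 0.00499). Only 5 of 28 pairs of strains differed, the fewest of the 10 genes. Cast was the 1 strain called against the mean of the others, 0.69 higher (0.0113). NOD spread most, with 0.968, 3.39 and 10.9 CPM as its lowest, median and highest library. Nqo1 also moved with Xist. In a fit with Xist as a term, Nqo1 was 0.09 higher (SE 0.0149) per log2 unit of Xist (adjusted p = 4.48e-06), where 35.1% of all genes were called. With that term Nqo1 was also lower in strain-129 (adjusted p = 0.017), AJ (0.0111) and NOD (0.0181) and higher in WSB (0.0222).

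Ephx1, microsomal epoxide hydrolase, opens reactive epoxides and is abundant in hepatocytes (ENSMUSG00000038776, chr1:180976210-181020904, minus strand). Its ratio of highest to lowest strain mean was the largest of the 10 genes. Means were 488 ± 187 in NZO, 323 ± 94.97 in NOD, 282 ± 93.9 in strain-129, 228 ± 51.1 in WSB, 225 ± 75.8 in B6, 173 ± 49.8 in Cast, 121 ± 43.2 in AJ and 98.9 ± 32.9 in PWK CPM. The lowest, median and highest libraries were 310.5, 419.6 and 831 CPM in NZO, 78.3, 103 and 199 CPM in AJ and 63.3, 88.8 and 155 CPM in PWK. Every NZO library stood above every library of AJ and of PWK. NZO exceeded PWK by 2.303 (SE 0.239) on the log2 scale, or 4.94-fold (edgeR adjusted p = 5.93e-12), and its lead over NOD, 0.59 (0.0384), ended in 6 leave-outs. Against the mean of the other strains Ephx1 was higher in NZO by 1.35 (2.1e-10) and NOD by 0.67 (0.00124), and lower in PWK by 1.29 (1.31e-07) and AJ by 0.96 (0.000495). The higher level in strain-129, 0.44 (0.0459), ended in 10 leave-outs, with adjusted p up to 0.211 without its library 7. Per log2 unit of Xist, Ephx1 fell by 0.06 (SE 0.0103, adjusted p = 3.18e-06), opposite to Nqo1. Gsr and Txnrd1 also fell by 0.02 each (0.000535 and 0.011), and the other 6 genes were not called in this test.

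Read by strain, the called genes all went one way in NZO and in PWK and both ways in the other 6 strains. In NZO 5 genes were higher than the mean of the other strains and 0 lower, where 26.7% of all genes were higher and 19.5% lower, 46.1% in all. These were Nfe2l2, Gclc, Txnrd1, Srxn1 and Ephx1. The median log2 change of the 10 genes was 0.33, against 0.02 for all genes. The 5 calls held in all 60 leave-outs, also the one without NZO 8. Without the 4 NZO libraries with over 10% of reads on Rn18s-rs5, Gclc was no longer called in NZO (0.32, edgeR adjusted p = 0.147). Marker lists of some other cells had mostly higher calls in NZO, and other lists were mixed. Of the Kupffer cell and macrophage markers 10 of 12 were higher, or 9 without NZO 8, and of the red cell markers 6 of the 6 tested were higher with and without it. Lymphocyte markers had 7 of 10 higher and 1 lower, or 5 and 1 without NZO 8, and neutrophil markers 4 of the 4 tested higher, or 2 without it. Without NZO 8, 22.7% of all genes were higher and 20.3% lower. The lymphocyte sum was 6.22 to 13.7 CPM in the other 7 NZO libraries, and its NZO median of 10.5 CPM was below those of AJ (21.6), B6 (21.2), NOD (39.5) and PWK (11.7). Of the hepatocyte markers 5 of 10 were lower and 0 higher, or 4 and 0 without NZO 8. Sinusoidal endothelial markers had 2 of 7 higher and 3 lower, or 1 and 3 without NZO 8. Stellate markers had 2 of 8 higher and 2 lower, or 1 and 2 without NZO 8. Cholangiocyte markers had 1 of 6 called in each direction with and without NZO 8. The part of these cells in the NZO levels was not tested.

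PWK showed the reverse, with 0 genes higher and 6 lower (22.5% and 22.7% of all genes). Gclm, Txnrd1, Srxn1, Hmox1, Ephx1 and Gss were lower, and the median log2 change of the 10 genes was -0.35, against -0.01 for all genes. All 6 calls held in every leave-out. Nfe2l2 itself was at -0.09 in PWK and was not called. Among hepatocyte markers in PWK 2 of 10 were higher and 0 lower. Markers of sinusoidal endothelial cells had 4 of 7 higher and 0 lower, with the highest median sum of the 8 strains (377 CPM). Of the stellate cell markers 3 of 8 were lower, of the cholangiocyte markers 3 of 6 and of the neutrophil markers 2 of the 4 tested, with 0 higher in each, and the median sums of these lists (229, 24.003 and 1.63 CPM) were the lowest of the 8 strains. The part of these cells in the PWK levels was not tested.

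Cast had the most calls, 5 higher and 3 lower, where 59.6% of all genes were called. Its Nfe2l2, Gclc and Gclm were lower, while Nqo1, Txnrd1, Srxn1, Hmox1 and Gsr were higher. Leave-outs gave 6 to 8 calls, the fewest without Cast 5. Several lists of cell markers were lower in Cast, with 5 of 10 hepatocyte markers lower and 2 higher, 7 of 10 lymphocyte markers lower and 0 higher, 5 of 7 sinusoidal endothelial markers lower and 1 higher, 6 of 8 stellate markers lower and 1 higher and 5 of 6 red cell markers lower and 0 higher (28.8% and 30.8% of all genes). The median sums for hepatocytes (72706 CPM), lymphocytes (5.92), sinusoidal endothelium (269) and red cells (214) were the lowest of the 8 strains. Neutrophil markers had 1 of the 4 tested higher and 0 lower, or 3 and 0 without NZO 8. Cholangiocyte markers had 1 of 6 in each direction, or 2 higher and 1 lower without NZO 8. Without NZO 8, 32.7% of all genes were higher in Cast and 28.1% lower. The part of these cells in the Cast levels was not tested. In strain-129 there were 2 higher and 2 lower (24.6% of all genes called), in AJ 2 and 1 (24.1%), in B6 1 and 1 (34.1%), in NOD 3 and 1 (28.3%) and in WSB 1 and 2 (45%). Without single libraries these counts ranged from 1 to 5 in strain-129, with 1 without its library 6, and from 1 to 4 in WSB, with 1 without WSB 6 and 1 without WSB 7. Each strain is compared with a mean that contains the others, so the 8 comparisons share samples.

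**Figure D2:**
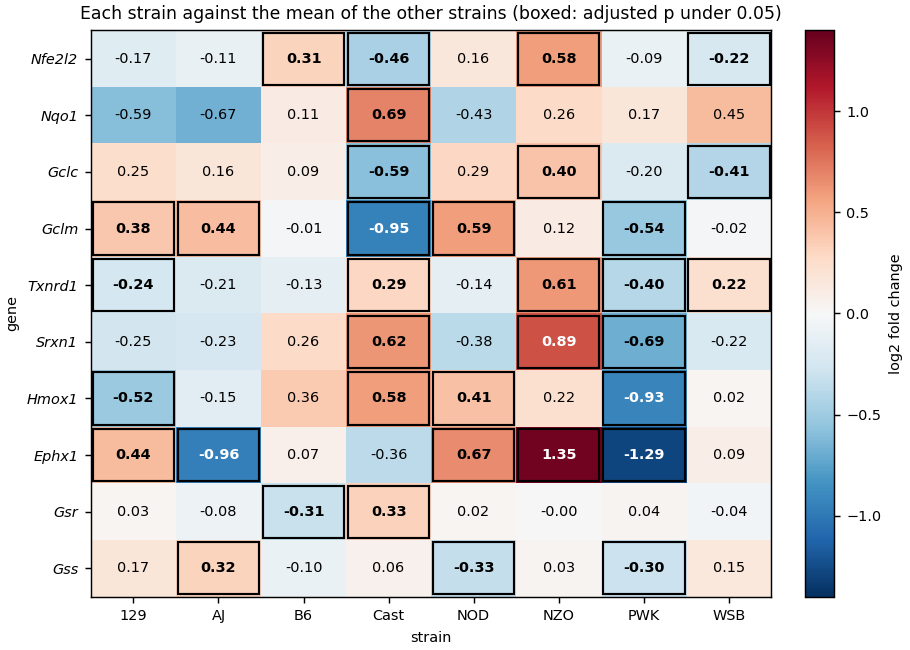
Log2 fold change of each gene (rows) in each strain (columns) against the unweighted mean of the other 7 strains, by edgeR. Red is higher and blue lower, and boxes mark adjusted p under 0.05. NZO has 5 boxed red cells and PWK 6 boxed blue ones, while Cast has Gclm at -0.95 beside Nqo1 at 0.69.

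Within strains, libraries were compared after the mean of each strain was subtracted from log2 CPM, over 60 libraries, with 100000 permutations within strains (two-sided). These values share library and depth scaling, and the shuffling treats the libraries of a strain as exchangeable. Of the 9 relations between Nfe2l2 and the other genes, 1 passed. Gclc deviated with Nfe2l2 (Pearson's r = 0.515, Spearman's rho = 0.54, permutation p = 5e-05, adjusted p = 0.00045 over the 9). Without the 2 libraries farthest from the median of Nfe2l2, Cast 6 and NOD 4, r was 0.502. Nqo1 had r = 0.222 (adjusted p = 0.166) with rho = 0.397 (adjusted p = 0.0105), and r rose to 0.393 (0.00189) without those 2 libraries. Txnrd1 had r = 0.042 and Gsr r = -0.073 with Nfe2l2, both not called.

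**Figure D3:**
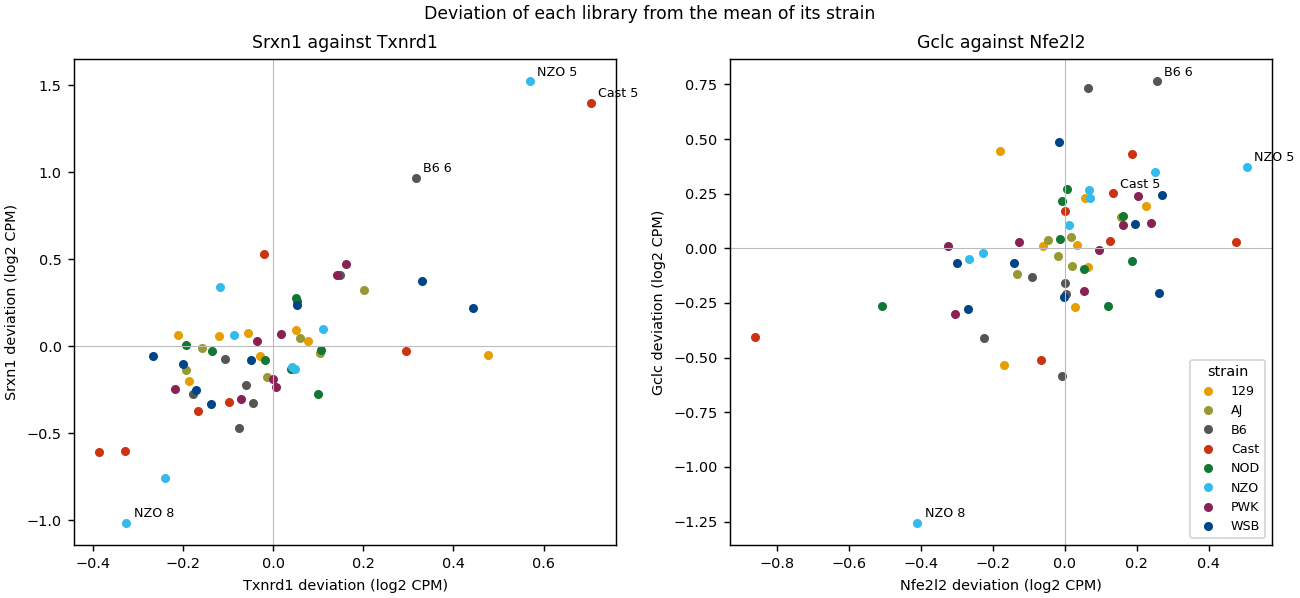
Deviation of each library from the mean of its strain, in log2 CPM, coloured by strain. Left, Srxn1 against Txnrd1, with NZO 5, Cast 5 and B6 6 at the upper right and NZO 8 at the lower left (r = 0.752). Right, Gclc against Nfe2l2, with NZO 8 lowest in Gclc (r = 0.515).

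All 45 pairs of the 10 genes were then compared, an addition made after the first result, with p-values adjusted over the 45. Of these, 12 were positive and called and 2 negative and called. Each pair was also compared without the 2 libraries farthest from the median of 1 gene, the earlier in the opening list. Txnrd1 and Srxn1 deviated together most closely, with r = 0.752 and rho = 0.642 (permutation p = 1e-05, the smallest that 100000 permutations can give, adjusted p = 0.000225). Without NZO 5 and Cast 5 r was 0.594. Gsr joined them, with r = 0.732 and rho = 0.603 to Txnrd1 (adjusted p = 0.000225, r = 0.621 without the same 2 libraries) and r = 0.574 and rho = 0.459 to Srxn1 (0.00252). The second of these was no longer called without NZO 5 and Cast 5 (r = 0.377, adjusted p = 0.0514).

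Another set was formed by Gclc, Gclm and Ephx1. Gclc and Gclm, the ligase subunits, had r = 0.441 and rho = 0.383 (adjusted p = 0.0054), with r = 0.353 without NZO 8 and B6 6. Ephx1 had r = 0.454 with Gclc (rho = 0.453, adjusted p = 0.00276, r = 0.378 without NZO 8 and B6 6) and r = 0.492 with Gclm (rho = 0.414, 0.0027, r = 0.409 without NOD 3 and NZO 8). Gclm showed no relation to Srxn1 that passed, with r = 0.021. The other 5 positive pairs called joined Gclc to Txnrd1 and Srxn1, and Gss to Txnrd1, Srxn1 and Gsr (r = 0.362 to 0.448). Of these only Gss with Gsr was still called without the 2 farthest libraries. Both negative pairs involved a gene of this set. Gclm and Hmox1 had r = -0.462 and rho = -0.4 (adjusted p = 0.0018), or r = -0.358 without NOD 3 and NZO 8. Nqo1 and Ephx1 had r = -0.347 and rho = -0.436 (adjusted p = 0.0408), or r = -0.403 without NOD 1 and NOD 7. Where the slope on Xist was subtracted as well, the second negative pair was no longer called, 13 pairs were positive and 1 negative, and Nfe2l2 with Ephx1 reached r = 0.526 (adjusted p = 0.0018 over the 45). Without the 2 libraries farthest for the earlier-listed gene of each pair, 8 positive and 2 negative pairs were called. Without NZO 8 alone 13 and 2 were called.

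**Figure D4:**
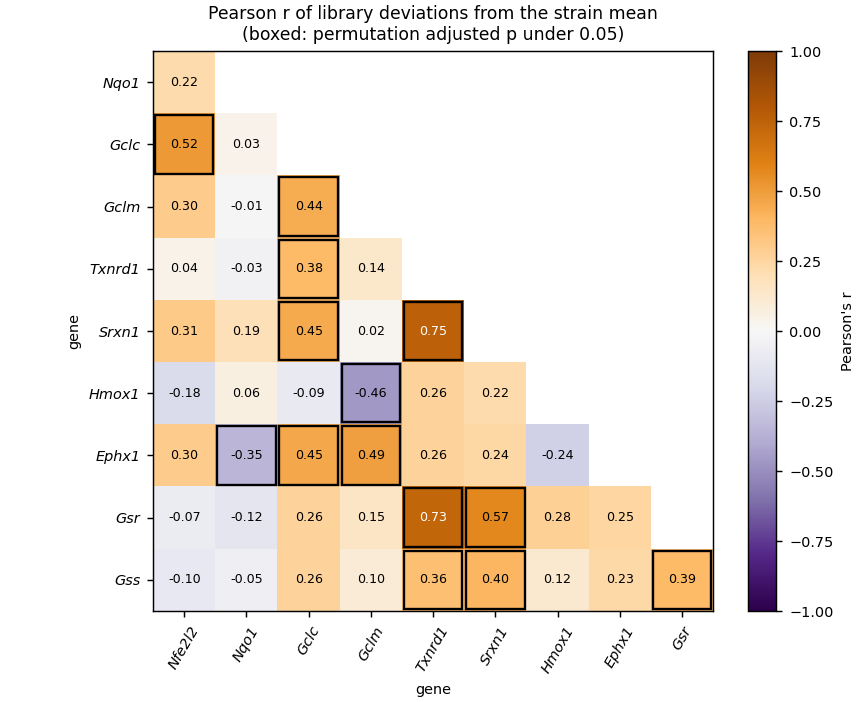
Pearson's r between the deviations of 2 genes from their strain means, over 60 libraries, for the 45 pairs of genes. Orange is positive and purple negative, and boxes mark permutation adjusted p under 0.05. Txnrd1, Srxn1 and Gsr share the highest values (0.574 to 0.752), and Nfe2l2 is boxed with Gclc alone.

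The same few libraries were extreme for many of the genes. B6 6 was the highest B6 library for 7 of the 10 genes and NZO 5 the highest NZO library for 6. Cast 5 was highest in Cast, and library 7 in strain-129, for 5 genes each. NOD 4 was lowest in NOD for 5 genes. NZO 5 and Cast 5 had hepatocyte sums of 55900 and 56700 CPM, next lowest after NZO 8.

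The rest of the pathway was read from 4 lists of genes. Among strains, 11 of 12 NRF2 regulators, 28 of 30 other NRF2 targets, 29 of 31 tested genes of cysteine supply and glutathione use and 14 of 17 tested genes of the thioredoxin and peroxiredoxin system were called (89.8% of all genes). The targets outside the 10 genes leaned the same way in NZO. There, 13 were higher and 1 lower (26.7% and 19.5% of all genes), with a median log2 change of 0.32 against 0.02 for all genes, and leave-outs gave 12 to 16 higher and 1 to 2 lower. In PWK 5 were higher and 12 lower (22.5% and 22.7%), with a median of -0.25. Cast had 8 higher and 11 lower (30.8% and 28.8%), with 5 higher without Cast 5. AJ had 2 higher and 9 lower (13.1% and 11%), with a median of -0.198. B6 had 8 higher and 1 lower (19.4% and 14.7%), with 5 higher without B6 6, and NOD had 8 and 2 (16.7% and 11.6%). WSB had 5 and 7 (22.6% and 22.4%) and strain-129 6 and 2 (13.7% and 10.9%). The low counts of lower calls in B6, NOD and strain-129 ranged from 0 to 3 over the leave-outs.

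Some of the 13 targets higher in NZO are named here with their values known. Among them, Me1, G6pdx and Pgd supply NADPH, which thioredoxin and glutathione reductase consume. Me1, malic enzyme, was higher by 1.195 (edgeR adjusted p = 4.54e-05). G6pdx and Pgd, of the oxidative pentose phosphate pathway, were higher by 1.35 (3e-07) and 0.94 (2.03e-06), and Tkt and Taldo1, of its non-oxidative branch, by 0.69 (4.77e-06) and 0.42 (0.000165). These 5 calls held in all 60 leave-outs. Cbr3, a carbonyl reductase, was scarce, with a mean of 0.55 CPM over all libraries. It was higher by 2.31 (7.68e-09), or 0.83 without NZO 5 (adjusted p = 0.00771). Pgd was lower in PWK by 0.78 (0.000336), while Me1 was higher there by 0.84 (0.00435).

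For each list the 3 genes with the smallest p among strains are given. Among regulators, Dpp3, a peptidase that binds KEAP1, stood at 82.4 ± 5.25 CPM (SD, n = 8) in PWK, against 40.4 to 47.6 CPM in the other strains, a log2 difference of 0.87 (edgeR adjusted p = 9.44e-19). Btrc, a ubiquitin ligase adaptor that takes part in NRF2 degradation, was also highest in PWK, by 0.49 (1.67e-09). Mafk, a small MAF partner of NRF2, was lowest in PWK, at 7.99 ± 1.37 CPM (SD, n = 8), and fell by 1.01 (adjusted p = 6.36e-09) there. It was higher in Cast by 0.61 (2.49e-05), or 0.29 without Cast 5 (0.0156), and in NZO by 0.44 (0.00167). Over the list, PWK had 3 of 12 regulators higher and 4 lower, close to the shares over all genes (22.5% and 22.7%).

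Among the other targets Gstm3, a glutathione transferase, ranged from 0.1499 ± 0.353 CPM (SD, n = 8) in PWK to 226 ± 326 CPM (SD, n = 8) in NOD. Its SD in NOD exceeded the mean, and near-identical transferases may share its reads. Blvrb, which acts on the products of heme breakdown, was highest in strain-129, at 57.4 ± 12.05 CPM (SD, n = 8). It was lowest in PWK, at 22.5 ± 2.39 CPM (SD, n = 8). Abcc3, an exporter of conjugates, stood at 26.3 ± 18.8 in Cast, 40.3 ± 44.8 in WSB and 73.1 ± 31.6 in PWK CPM and at 194 to 316 CPM in the other 5 strains.

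In cysteine supply and glutathione use, Gstt1 was at 8.43 ± 5.301 CPM (SD, n = 7) in Cast and at 67.1 to 215 CPM elsewhere. Ahcy, which yields homocysteine for cysteine synthesis, had strain means in 2 ranges. These were 1472 to 1571 CPM in AJ, B6, Cast and PWK and 387 to 594 CPM in NOD, NZO, WSB and strain-129. Libraries of Cast spread widely, at 1515 ± 807 CPM (SD, n = 7). Glrx, glutaredoxin, was lowest in B6, by 0.92 (edgeR adjusted p = 5.29e-12). In the thioredoxin and peroxiredoxin system, Sesn2 was higher in Cast by 1.90 (8.98e-15) and lower in PWK by 0.96 (6.63e-05). Its Cast libraries spread widely, at 42.1 ± 29.3 CPM (SD, n = 7). Txn2, mitochondrial thioredoxin, was higher in Cast by 0.43 (1.59e-10) and lower in NZO by 0.32 (7.56e-07). Prdx3, the mitochondrial peroxiredoxin, was highest in B6, by 0.41 (4.18e-08). In NZO 2 of the 17 genes tested were higher and 5 lower, where 26.7% and 19.5% of all genes were, and without the Rn18s-rs5-rich libraries 0 were higher and 3 lower.

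**Figure D5:**
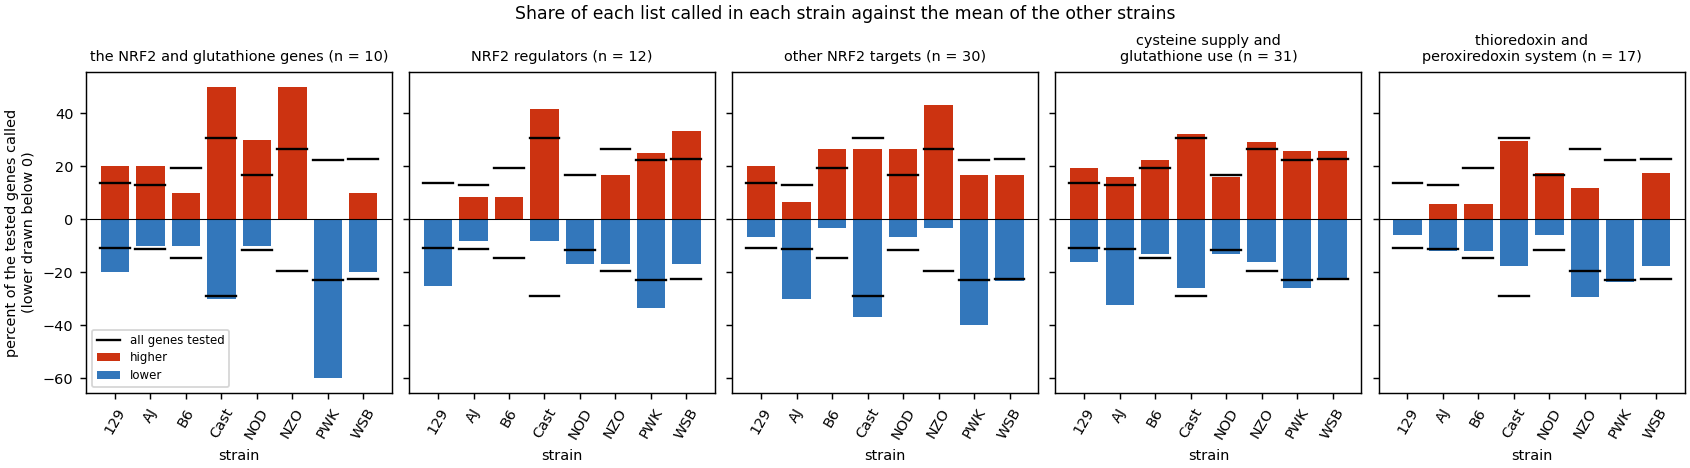
Percent of the tested genes of each list (vertical axis) called higher (red, above 0) or lower (blue, below 0) in each strain against the mean of the other 7. Black lines give the same shares over all 16165 genes tested. The 10 genes and the other NRF2 targets both exceed the line for higher calls in NZO (5 of 10 and 13 of 30) and for lower calls in PWK (6 of 10 and 12 of 30).

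Genes whose levels were among the most like each of the 10 were found by Pearson's r of log2 CPM over the 60 libraries, out of 9023 genes, as a description. Strain differences enter this r, and the value after strain means were subtracted is given beside it. Nfe2l2 was most like Plin2, a lipid droplet coat protein (r = 0.777, within strains 0.604). Nqo1 was most like Eci3, an enoyl-CoA isomerase of fatty acid oxidation (0.773, within strains 0.762). For Hmox1 it was Marco, a macrophage scavenger receptor (0.724, within strains 0.58). Ephx1 was most like Bhmt, which methylates homocysteine (0.808, within strains 0.652). Srxn1 had Mapre3 (0.803, within strains 0.735), Txnrd1 Ywhag (0.764, 0.632), Gsr Pcgf6 (0.794, 0.705) and Gclc Capn2 (0.731, 0.458). The next gene was Abhd2 for Nqo1, Postn for Hmox1, Ghitm for Ephx1 and Smarca4 for Srxn1. It was Kpnb1 for Txnrd1, Tfdp1 for Gsr, Bri3bp for Gclc and Alg1 for Gss. Their r ran from 0.622 to 0.777, and within strains from 0.155 for Alg1 to 0.707 for Tfdp1. Gclm and Gss were matched mostly through strain differences. Sfr1 had r = 0.883 with Gclm but 0.274 within strains, and Cpsf4 had 0.637 with Gss but 0.049 within strains.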

How the data were processed

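The 10 genes, the gene lists and the tests were chosen with earlier results of these data known. The count table deposited by the authors held raw estimated counts for each gene, 21% of them fractional. The design had taken them to be whole, and they were rounded before testing. A second table from the authors held variance-stabilised log2 values and served in alternatives. The submitters' processing notes name DESeq2 and GRCm38. The aligner, the counter, the annotation and the strand setting were not given in the sources used here. How alleles that differ from the reference were counted was not tested. Positions of genes come from the authors' gene table, in GRCm38. Exon lengths and overlaps are from GENCODE on the same build.

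Of 61 labelled samples 60 had a column. B6 number 5 had none, and 1 column that matched no sample was not used. The test was edgeR's quasi-likelihood F test (edgeR 4.0.16, R 4.3.3) on TMM-scaled counts with strain as the only factor, after filterByExpr by strain had left 16165 genes. This gave the test among 8 strains, each strain against the unweighted log-scale mean of the other 7, and 28 pairs, each adjusted by Benjamini-Hochberg over all genes (threshold 0.05). SE is the log2 change over the square root of F. The code was tested on simulated data. Correlations were computed on log2 CPM (prior count 2) with scipy 1.17.1 and numpy 2.4.6. At a median depth of 30.42 M reads, counting error is largest for Nqo1, the scarcest gene, and reads copied by PCR are not independent molecules. Alternatives were other size factors, no filter, a replicate block, Xist as a covariate, leaving out 4 libraries with over 10% of reads on Rn18s-rs5, limma 3.58.1, DESeq2 1.42.0 and leaving out each library. Added after seeing the data were the 45 pairs, correlations without NZO 8, with Xist subtracted and with a replicate block, marker calls without NZO 8, the second motif and leave-outs of list genes. Beside the 10 genes, the rule named the 3 genes of each list with the smallest p among strains at a mean of at least 5 CPM, and others are marked as named with their values known. External RNA controls were not used here. Of the 2 genes most like each of the 10, 1 for Nfe2l2 and 1 for Gclm are not reported here.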

Additional observations from a re-analysis of the deposited data

Results flagged for a closer look

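Within strains, 7 of the 80 sets of 1 gene in 1 strain held a library whose gap to its nearest neighbour was large for the range of the set. Chance gives about 1 in 20. NZO 5 was high for 2 genes, with Txnrd1 at 258.0 CPM (next 187.5) and Srxn1 at 141.1 CPM (next 62.01). Cast 5 was high for Srxn1, at 110.8 CPM (next 60.59). In library 7 of strain-129 Txnrd1 stood at 144.8 CPM (next 109.8), and in Cast 1 Hmox1 stood at 51.9 CPM (next 36.84). On the low side were Gclc in NZO 8, at 139.7 CPM (next 322.4), and Nfe2l2 in NOD 4, at 47.78 CPM (next 67.33).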

How the results depend on the processing

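All 10 genes stayed called among strains under every alternative and leave-out run. Of the 80 results of 1 gene in 1 strain, 35 were called, and 8 of these lost the call in at least 1 of 60 leave-outs, while 5 of the others gained one. None changed direction while called. The number of genes called ranged over the leave-outs from 1 to 5 in strain-129 and from 1 to 4 in WSB. Nfe2l2 related to 1 gene within strains, and to 2 both with the slope on Xist subtracted (Ephx1 added) and without its 2 farthest libraries (Nqo1 added). Other size factors and no filter changed 0 of the 80. DESeq2 ended Ephx1 in strain-129 (adjusted p = 0.0507). With limma on the authors' values, Ephx1 in strain-129 (0.0668) and Hmox1 in NOD (0.0507) ended and Nqo1 in NOD (0.0173) was gained. Without the libraries rich in Rn18s-rs5, Gclc in NZO and Hmox1 in NOD (0.0591) ended and Hmox1 in NZO (0.0495) was gained. Xist as a covariate gained 6 calls and ended 0. The causes were not tested.

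Strains share replicate numbers, but no label says that a number pairs samples. Same-numbered libraries had a median correlation of 0.201 in their deviations (lowest -0.429), against -0.0699 for other numbers, and 53 of 60 were closer to their own number. A replicate block ended 4 calls, Txnrd1 (adjusted p = 0.0568) and Hmox1 (0.0502) in strain-129, Hmox1 in NOD (0.0617) and Nfe2l2 in WSB (0.0536), and gained Nqo1 in strain-129 (0.0368) and in AJ (0.0426). With the replicate number subtracted beside the strain mean, an alternative added after seeing the data, Nfe2l2 related to 3 genes in place of 1 (Gclm and Ephx1 added, both adjusted p = 0.0342 over the 9). Of the 45 pairs 16 were positive and called and 1 negative and called. Of the 14 called without this block 12 were called with it, and Nqo1 with Ephx1 (r = -0.123, adjusted p = 0.679) and Gclc with Txnrd1 (r = 0.334, 0.0756) were not.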
